A study of Mus musculus with 10 samples.

Results

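The genes described here encode the metabotropic GABA-B receptor and the potassium channels that it opens. They were taken as a list of 7 gene symbols (Gabbr1, Gabbr2, Kcnj3, Kcnj5, Kcnj6, Kcnj9 and Kcnj15) and looked up in the platform annotation of the arrays. The rule itself uses no measured value, although the list was drawn up with earlier results of these data known. Each symbol matched 1 transcript cluster, the set of probes along a transcript that Affymetrix whole-transcript arrays summarise as 1 value, so all 7 were measured among 19938 named genes (23410 annotated transcript clusters). Kcnj15 encodes Kir4.2, an inward rectifier that is not gated by G proteins. It was listed because, like Kcnj6, it lies near Dyrk1a on mouse chromosome 16. The other 6 genes encode the receptor and the channel proper.

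RNA of the whole hippocampus, left and right of 1 mouse together, was prepared from 16-week-old male mice, 5 of them Tg(Dyrk1a) and 5 their wild type littermates, on a background that the labels give as C57BL/6N and the methods of the study as C57BL/6J. The Tg(Dyrk1a) line has an extra Dyrk1a, a kinase gene, in a bacterial artificial chromosome (BAC) transgene, and how far that insert reaches beyond Dyrk1a is not given in the sources used here. Each mouse gave 1 array, and values are log2 signals after robust multi-array average (RMA) processing. The comparison asked which hippocampal transcripts differ when Dyrk1a is the gene in excess.

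GABA-B receptors are obligate pairs. The GABBR1 subunit binds GABA, and the GABBR2 subunit carries the pair to the cell surface and activates Gi/o proteins. The βγ dimers released from these G proteins bind GIRK channels in the dendrites and spines of hippocampal pyramidal and granule cells and open them, and the outflow of potassium gives the slow inhibitory postsynaptic current. GIRK channels are tetramers built from the products of Kcnj3 (GIRK1), Kcnj6 (GIRK2), Kcnj9 (GIRK3) and Kcnj5 (GIRK4), of which the first 3 are the neuronal subunits and the last is best known from the atrium of the heart. Kcnj6 belongs to the chromosome segment that is triplicated in Down syndrome together with Dyrk1a.

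The bases before the start of 4 of these genes are given, 5′ to 3′ on the strand of the gene, as context for the receptor pair and for the 2 genes that lie beside Dyrk1a. They are the 250 bases upstream of the annotated start in RefSeq (GRCm38.p6), and capitals mark each GC box (GGGCGG, or CCGCCC on the other strand). The windows are chr17:37045716-37045965 (plus strand) for Gabbr1, chr4:46991715-46991964 (minus strand) for Gabbr2, chr16:94997697-94997946 (minus strand) for Kcnj6 and chr16:95257308-95257557 (plus strand) for Kcnj15.
Gabbr1: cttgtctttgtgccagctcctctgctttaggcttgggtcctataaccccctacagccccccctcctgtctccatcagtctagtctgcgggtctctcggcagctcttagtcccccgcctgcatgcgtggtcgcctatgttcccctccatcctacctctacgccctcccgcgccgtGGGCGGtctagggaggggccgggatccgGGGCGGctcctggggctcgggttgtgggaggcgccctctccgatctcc
Gabbr2: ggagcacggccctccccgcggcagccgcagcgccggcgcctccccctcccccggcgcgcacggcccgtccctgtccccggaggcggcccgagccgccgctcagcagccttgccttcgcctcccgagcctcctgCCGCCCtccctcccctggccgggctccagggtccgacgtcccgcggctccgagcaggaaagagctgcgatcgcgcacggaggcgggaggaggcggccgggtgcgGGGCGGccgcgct
Kcnj6: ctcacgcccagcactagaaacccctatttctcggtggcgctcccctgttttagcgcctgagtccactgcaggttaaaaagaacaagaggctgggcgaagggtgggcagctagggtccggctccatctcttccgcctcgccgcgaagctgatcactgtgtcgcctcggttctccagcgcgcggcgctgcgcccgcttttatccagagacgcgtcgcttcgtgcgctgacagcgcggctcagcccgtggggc
Kcnj15: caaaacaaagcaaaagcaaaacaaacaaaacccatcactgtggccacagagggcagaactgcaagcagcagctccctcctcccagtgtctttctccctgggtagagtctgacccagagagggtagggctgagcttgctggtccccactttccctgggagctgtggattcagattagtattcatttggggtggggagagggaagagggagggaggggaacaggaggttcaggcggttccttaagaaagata

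The Gabbr1 and Gabbr2 windows hold 2 GC boxes each, as does that of Kcnj5, and the windows of Kcnj3, Kcnj6, Kcnj9 and Kcnj15 hold 0. The Kcnj3 window (chr2:55435720-55435969, plus strand) lies inside the gene, whose lower coordinate is 55411798. Its counts therefore do not describe the bases before that coordinate. A GC box stood in 32.7% of 32851 RefSeq promoter windows of the same length. The core of the cyclic AMP response element (TGACG, or CGTCA on the other strand), present in 17.8% of all windows, was in 0 of the 7. The Gabbr2 window is the richest in G and C of the 7 at 80.8%, with 37 CpG dinucleotides, and the Kcnj15 window holds 1 CpG at 53.2% G and C. The Kcnj6 window holds 26 CpG at 64.0% and the Gabbr1 window 16 at 66.0%. All promoters had a median of 52.4% and 6.0 CpG. These matches describe the letters only.

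Dyrk1a checks the genotype labels. Its main transcript cluster read 11.65, 11.62, 11.67, 11.65 and 11.68 in Tg(Dyrk1a) replicates 1 to 5, against 11.28, 11.15, 11.14, 11.19 and 11.15 in wild type replicates 1 to 5. The groups did not overlap, which held for 0.807% of all transcript clusters. The transgene line was 0.47 ± 0.03 (SE) higher on the log2 scale, which is 1.38-fold (95% interval 1.31 to 1.46), at a limma adjusted p of 0.000138. With the thalamus, meninges and choroid plexus scores described below as covariates it was 0.46 and no longer passed, at a limma adjusted p of 0.272 (range over the alternatives 4.02e-06 to 0.272). Averaged with a dimmer Dyrk1a transcript cluster, which was 1.11-fold higher and did not pass (limma adjusted p = 0.947), the log2 fold change was 0.31 and passed (limma adjusted p = 0.0169).

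No difference between Tg(Dyrk1a) and wild type hippocampi was detected for any of the 7 genes. At a limma adjusted p under 0.05 there were 0 of 7, beside 0.00854% of all annotated transcript clusters (2 of 23410, with 0.00427% higher and 0.00427% lower in Tg(Dyrk1a)). At an unadjusted p under 0.05 there were also 0 of 7, beside 4.93% (2.99% higher and 1.94% lower). The rank method FCROS called 0 of 7, beside 4.83%. The smallest unadjusted p of the 7 was 0.346 by limma. All 7 log2 fold changes were smaller than their own SE, and 5 were smaller than the median absolute log2 fold change of all genes (0.03). The point estimates were higher in Tg(Dyrk1a) for 3 genes and lower for 4, with a median of -0.0052 beside 0.0020 over all genes, of which 51.7% were higher (50.9% of all transcript clusters). The 95% intervals bound how large a difference these arrays could have missed. Over the 7 genes they reached from 0.889-fold (Kcnj9) to 1.13-fold (Kcnj15), whereas the Dyrk1a interval began at 1.31-fold. With the marker scores as covariates the intervals were wider, 0.835-fold (Kcnj9) to 1.24-fold (Kcnj15). RMA summaries compress fold changes, so these bounds hold on the scale of the array values.

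**Figure D1:**
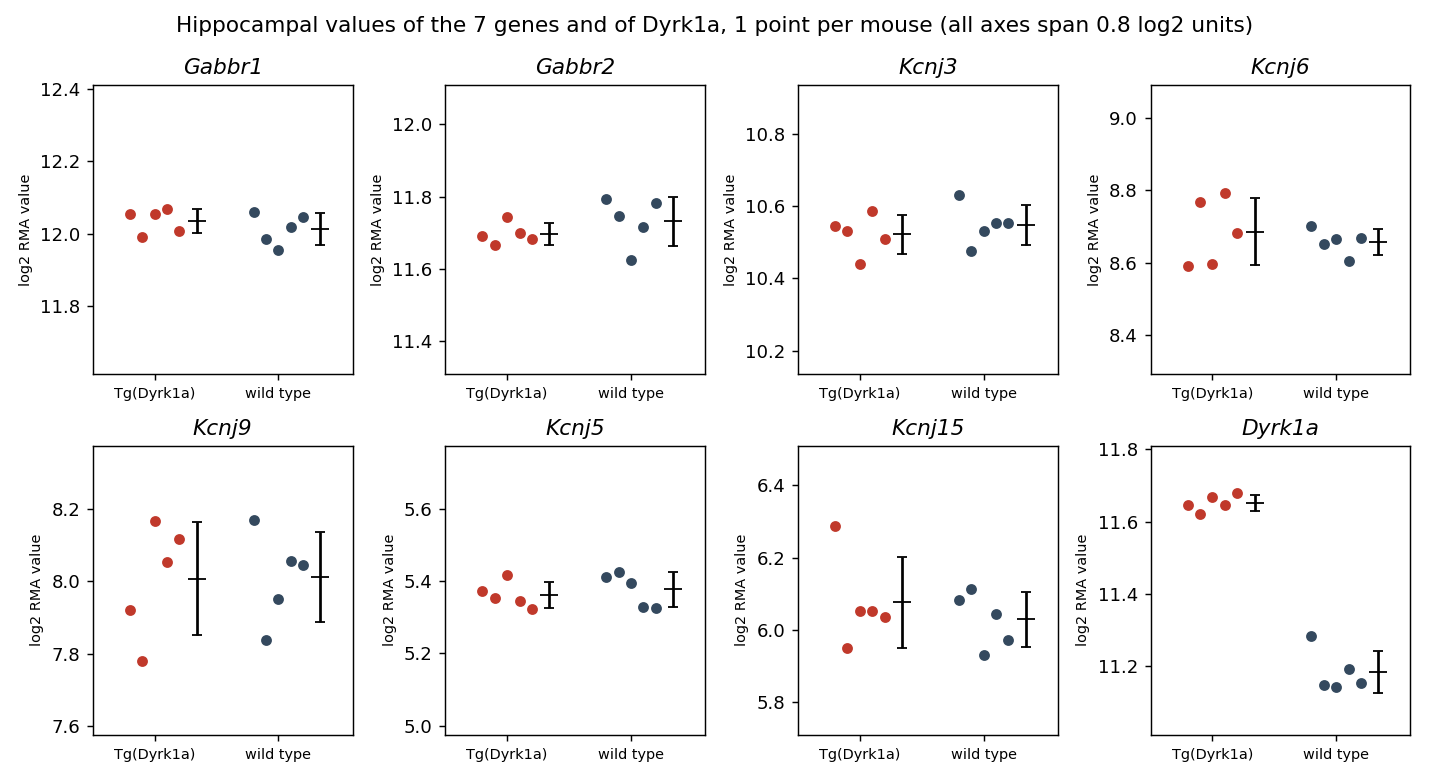
Log2 RMA values (vertical axes, each spanning 0.8 log2 units) of the 7 genes and of Dyrk1a for Tg(Dyrk1a) mice (left) and wild type mice (right). Each point is 1 mouse, and the bars give mean and SD over 5. The genotypes overlap in all 7 panels of the receptor and channel genes and are separated by 0.47 on the log2 scale for Dyrk1a.

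The values of both receptor subunits overlapped between the genotypes. Gabbr1 (transcript cluster 10445078; chromosome 17, 37045966 to 37074305 in GRCm38.p6) read 12.05, 11.99, 12.05, 12.07 and 12.01 in Tg(Dyrk1a) replicates 1 to 5, against 12.06, 11.98, 11.95, 12.02 and 12.05 in wild type replicates 1 to 5. Highest was a Tg(Dyrk1a) array and lowest a wild type array, and the ranges overlapped over most of their length. The means were 12.03 ± 0.03 in Tg(Dyrk1a) and 12.01 ± 0.04 in wild type mice (SD, n = 5 each). The log2 fold change of 0.02 ± 0.03 (SE; 95% interval -0.05 to 0.09) was not significant (limma adjusted p = 0.971; exact permutation p = 0.397), and 3 of 5 Tg(Dyrk1a) arrays lay above the wild type mean.

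Gabbr2 (10512807; chromosome 4, 46662318 to 46991714) read 11.69, 11.67, 11.74, 11.70 and 11.68 in Tg(Dyrk1a) mice, against 11.79, 11.75, 11.62, 11.72 and 11.78 in wild type mice. The 5 Tg(Dyrk1a) values fell inside the wild type range, whose lowest value was that of replicate 3. Mean values were 11.70 ± 0.03 in Tg(Dyrk1a) and 11.73 ± 0.07 in wild type mice (SD, n = 5 each). Its log2 fold change was -0.04 ± 0.04 (SE; 95% interval -0.11 to 0.04; limma adjusted p = 0.966; exact permutation p = 0.317), with 1 of 5 Tg(Dyrk1a) arrays above the wild type mean. Without wild type replicate 3 it was -0.06, and without wild type replicate 1 or 5 it was -0.02 each (unadjusted limma p of 0.073, 0.598 and 0.562). Of the 7 genes this one had the smallest unadjusted p.

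Among the channel subunits, Kcnj3 encodes GIRK1, which needs a partner subunit to reach the membrane. Kcnj3 (10472155; chromosome 2, 55411798 to 55598145) read 10.54, 10.53, 10.44, 10.59 and 10.51 in Tg(Dyrk1a) mice, against 10.63, 10.48, 10.53, 10.55 and 10.55 in wild type mice. The lowest array was a Tg(Dyrk1a) one and the highest a wild type one, and the remaining 8 were mixed. This gave a log2 fold change of -0.03 ± 0.04 (SE; 95% interval -0.11 to 0.05; limma adjusted p = 0.971; exact permutation p = 0.468). With means of 10.52 ± 0.05 in Tg(Dyrk1a) and 10.55 ± 0.06 in wild type mice (SD, n = 5 each), the difference was smaller than either SD.

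Kcnj6 encodes GIRK2, the subunit that forms the main hippocampal channel with GIRK1. Kcnj6 (10441073; chromosome 16, 94744980 to 94997696) read 8.59, 8.77, 8.60, 8.79 and 8.68 in Tg(Dyrk1a) mice, against 8.70, 8.65, 8.67, 8.60 and 8.67 in wild type mice. Tg(Dyrk1a) replicates 2 and 4 held the 2 highest values and replicate 1 the lowest of all 10 arrays, so the mutant values enclosed the wild type values. Means were 8.69 ± 0.09 in Tg(Dyrk1a) and 8.66 ± 0.04 in wild type mice (SD, n = 5 each). The log2 fold change was 0.03 ± 0.04 (SE; 95% interval -0.07 to 0.12; limma adjusted p = 0.975; exact permutation p = 0.508).

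The 2 Tg(Dyrk1a) arrays with the highest Kcnj6 values were also high in choroid plexus markers. A score for that tissue, the mean deviation of 13 marker genes, was -0.58, 1.14, -0.72, 0.83 and -0.46 in Tg(Dyrk1a) mice, against -0.54, -0.39, -0.42, 0.01 and 1.13 in wild type mice. It exceeded 0.5 in 2 Tg(Dyrk1a) arrays and in wild type replicate 5, whose Kcnj6 value of 8.67 lay inside the range of the other wild type arrays. Without these 3 arrays the Kcnj6 log2 fold change was -0.03, and in the fit of all 10 arrays with the marker scores as covariates it was 0.03.

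Kcnj9 encodes GIRK3, a subunit that carries sorting signals and modifies the surface level of the channel. Kcnj9 (10360297; chromosome 1, 172320508 to 172329322) read 7.92, 7.78, 8.17, 8.05 and 8.12 in Tg(Dyrk1a) mice, against 8.17, 7.84, 7.95, 8.06 and 8.04 in wild type mice. It varied most between mice of the same genotype, with 8.01 ± 0.16 in Tg(Dyrk1a) and 8.01 ± 0.12 in wild type mice (SD, n = 5 each). The log2 fold change of -0.0052 ± 0.08 (SE; 95% interval -0.17 to 0.16) was the smallest of the 7 and had the largest SE (limma adjusted p = 0.998; exact permutation p = 0.960). Its sign turned under 8 of 20 alternatives, between -0.05 and 0.06.

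Kcnj5 encodes GIRK4. Kcnj5 (10592061; chromosome 9, 32314706 to 32344380) read 5.37, 5.35, 5.42, 5.34 and 5.32 in Tg(Dyrk1a) mice, against 5.41, 5.43, 5.40, 5.33 and 5.32 in wild type mice. The values of both genotypes spread over almost the same range, and the log2 fold change was -0.01 ± 0.03 (SE; 95% interval -0.09 to 0.06; limma adjusted p = 0.980; exact permutation p = 0.571). Kcnj5 was among the 30% of transcript clusters with the lowest mean, where RMA compresses differences most, and the deposited values carry no detection call. Whether the transcript was present in the hippocampus was therefore not assessed.

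Kcnj15 (10437151; chromosome 16, 95257558 to 95300260) read 6.29, 5.95, 6.05, 6.05 and 6.04 in Tg(Dyrk1a) mice, against 6.08, 6.11, 5.93, 6.04 and 5.97 in wild type mice. Tg(Dyrk1a) replicate 1 was the highest array, and the other 4 mutant values lay within the wild type range. Here the log2 fold change was 0.05 ± 0.06 (SE; 95% interval -0.08 to 0.17; limma adjusted p = 0.969; exact permutation p = 0.563), the largest point estimate of the 7. Without Tg(Dyrk1a) replicate 1 it was -0.0060, and with the marker scores as covariates it was 0.13 ± 0.08 (SE), or 1.09-fold with limits of 0.962 and 1.24 at 95%.

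**Figure D2:**
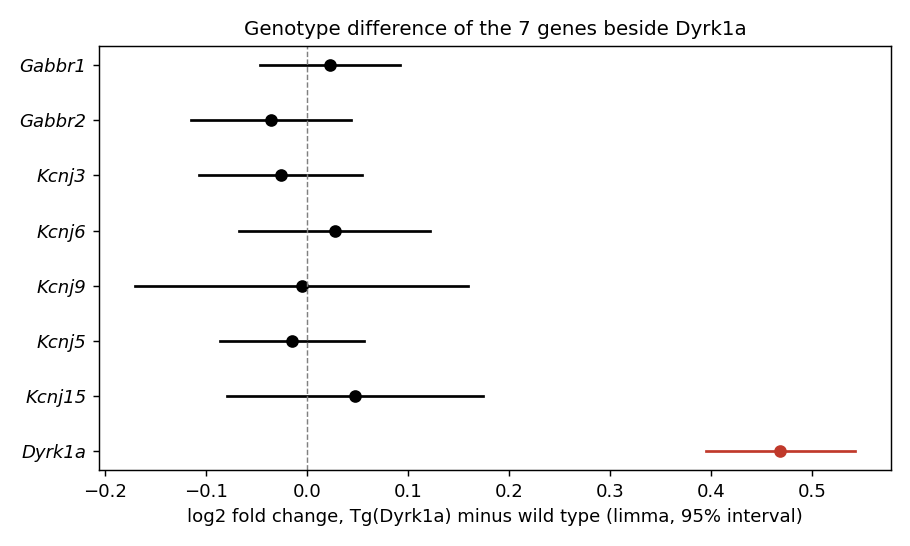
The 7 genes and Dyrk1a (vertical axis) with the log2 difference of Tg(Dyrk1a) from wild type (horizontal axis) over 5 mice per genotype, as the limma estimate (point) and its unadjusted 95% interval (line). The intervals of the 7 genes include 0 and end below the Dyrk1a interval, which begins at 0.40.

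The lower coordinates of Kcnj6 and Kcnj15 lie 175 and 688 kb beyond that of Dyrk1a, and the labels give no additional copy of either. The difference between Dyrk1a and each neighbour was taken within each array, which removes any scaling of the array as a whole. Dyrk1a minus Kcnj6 was 2.97 ± 0.11 in Tg(Dyrk1a) and 2.53 ± 0.05 in wild type mice (SD, n = 5 each), with ranges of 2.85 to 3.07 in Tg(Dyrk1a) and 2.48 to 2.59 in wild type mice. The genotypes differed by 0.44 on the log2 scale (two-sided exact permutation p = 0.00794, the smallest that 5 against 5 allow). Dyrk1a minus Kcnj15 was 5.58 ± 0.13 in Tg(Dyrk1a) and 5.16 ± 0.07 in wild type mice (SD, n = 5 each), and differed by 0.42 (exact permutation p = 0.00794). These were 2 comparisons, and adjustment over both leaves each p as it is. Dyrk1a alone gave the same exact permutation p (0.00794). Both p therefore rest on the rise of Dyrk1a and do not test a change in Kcnj6 or Kcnj15. On the scale of the array values, the change in the main Dyrk1a transcript cluster was thus larger than that in either neighbour. The dimmer Dyrk1a transcript cluster rose by 0.16. Kcnj15 was dim, at percentile 31.4 of mean values beside 97.8 for the main Dyrk1a transcript cluster, and RMA compresses differences most at low values. The size of a change in the neighbours is bounded only by the intervals above.

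The genes on both sides of Dyrk1a place these values in the chromosome. RefSeq lists 36 other genes whose lower coordinate lies within 1 Mb of that of Dyrk1a. Of these, 16 had a transcript cluster annotated to that gene alone and were read here, and 20 had none. Their log2 fold changes ran from -0.07 to 0.15 with a median of -0.0040, 8 higher and 8 lower in Tg(Dyrk1a), and 0 passed limma (adjusted p of 0.947 or above). At an unadjusted p under 0.05 there was 1 of 16 (beside 5.28% of all genes), Vps26c, which encodes a subunit of the endosomal retriever complex and lies at -72.2 kb on the same count.

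Vps26c read 9.03, 8.92, 8.89, 8.84 and 8.87 in Tg(Dyrk1a) mice, against 8.75, 8.82, 8.76, 8.88 and 8.80 in wild type mice. All 5 Tg(Dyrk1a) arrays lay above the wild type mean, and only replicates 4 and 5 lay below the highest wild type array. The log2 fold change was 0.11 ± 0.04 (SE; limma adjusted p = 0.947; exact permutation p = 0.0238 before adjustment). Pigp, of the first step of GPI anchor synthesis, was at 0.15 ± 0.07 (SE; limma adjusted p = 0.947; exact permutation p = 0.0873) in its brighter transcript cluster (10545528), or 0.08 without wild type replicate 1, and at 0.02 ± 0.04 (SE; limma adjusted p = 0.976; exact permutation p = 0.563) in the other (10441055). The brighter one has a number far from those of the other chromosome 16 genes, and the position of its probes was not checked. Vps26c and Pigp were the 2 of 16 that FCROS called, beside 4.83% of all transcript clusters. The other 14, which include Setd4, Cbr1, Cbr3, Dop1b, Morc3, Chaf1b, Cldn14, Sim2, Hlcs, Ripply3, Ttc3 and Erg besides Kcnj6 and Kcnj15, lay between -0.07 and 0.05.

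**Figure D3:**
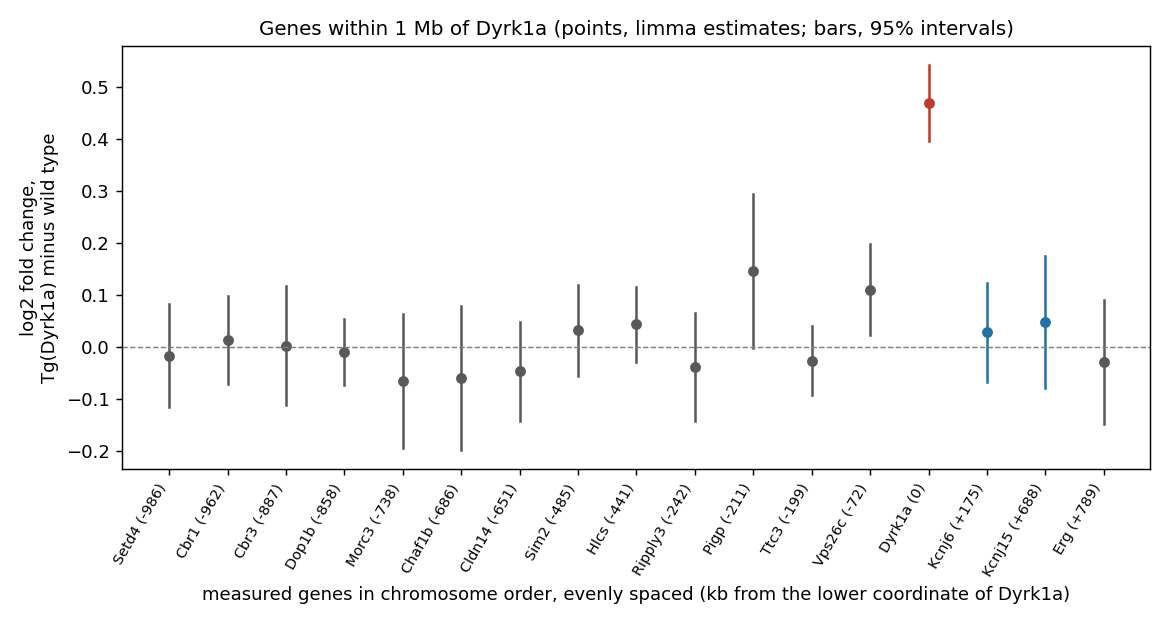
Log2 difference of Tg(Dyrk1a) from wild type (vertical axis) for Dyrk1a (red) and for 16 measured genes whose lower coordinate lies within 1 Mb of its own (horizontal axis, in chromosome order and evenly spaced, with the distance in kb), 5 mice per genotype. Each point is a limma estimate with its unadjusted 95% interval. Kcnj6 and Kcnj15 (blue) include 0, and Dyrk1a at 0.47 stands above all 16.

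Array by array, Gabbr1 and Gabbr2 tended to vary together. Over the 10 arrays, with each genotype's mean removed, Pearson's r was 0.806 (permutation p = 0.00259) and Spearman's rho 0.806 (permutation p = 0.00691). Adjusted over the 21 pairs of the 7 genes these were 0.0544 and 0.145, so neither passed. The relation was present within Tg(Dyrk1a) (r = 0.662) and within wild type (r = 0.887), and r was 0.600 without the 2 arrays farthest from the median of Gabbr1. None of the other 20 pairs had a permutation p under 0.05, and the next was Gabbr1 with Kcnj9 (r = 0.612, permutation p = 0.063). Likeness between genes was common on these arrays, since 250 of 19937 genes were more like Gabbr1 than Gabbr2 was (Gabbr2 ranked 251, or 1.26%).

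The genes whose pattern over the 10 arrays was most like each of the 7 are given as a description, with r computed on the same values without genotype means among 17982 genes. The 2 highest of so many r over 10 arrays can be high by selection alone, and no test was made. Without the 2 arrays farthest from the median of the member gene, r was between 0.779 (Gabbr2 with Abtb2) and 0.976 (Kcnj9 with Bend6). For Gabbr1 they were Lsamp (r = 0.972), a cell adhesion protein of the limbic system, and Clcn2 (r = 0.951), a chloride channel. For Gabbr2 they were Ppm1e (r = 0.945), a phosphatase, and Abtb2 (r = 0.939). Kcnj3 varied with Med20 (r = 0.961), of the Mediator complex, and Reep4 (r = 0.955). Kcnj6 varied with Saal1 (r = 0.949) and Cxxc1 (r = 0.947), a CpG-binding protein. The pairs were Bend6 (r = 0.975) and Pcdhb15 (r = 0.970) for Kcnj9, Abcg3 (r = 0.973) and Spink4 (r = 0.948) for Kcnj5, and Sgsm3 (r = 0.958) and Itgb3 (r = 0.937) for Kcnj15. None of the 7 genes was among the 2 nearest of another.

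The wider pathway was read from 7 lists with 87 genes, of which 83 were measured, and 0 passed limma over all transcript clusters (smallest adjusted p = 0.947). At an unadjusted p under 0.05 there were 6 higher and 1 lower, or 7 of 83, beside 5.28% of all genes. In total 48 were higher and 35 lower in Tg(Dyrk1a), with a median of 0.0076 beside 0.0020 over all genes. FCROS called 6 of the 83, beside 4.83% of all transcript clusters. These were Kctd8, Kctd12, Gnb4, Oprm1 and Npy2r, described below, and Cnr1, the cannabinoid receptor gene, at 0.12, which was singled out after its values were seen. Piantp, Adora1, Adra2a and Rgs10 were not analysed here.

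Among the auxiliary subunits of the receptor, Kctd12 and Kctd8 had higher values in most Tg(Dyrk1a) arrays without passing the test. KCTD proteins bind the tail of GABBR2 and set the speed and desensitisation of the response. Kctd12 read 9.76, 9.67, 9.68, 9.61 and 9.66 in Tg(Dyrk1a) mice, against 9.57, 9.60, 9.48, 9.63 and 9.58 in wild type mice. Only the lowest Tg(Dyrk1a) and the highest wild type array overlapped. Its log2 fold change was 0.10 ± 0.04 (SE; limma adjusted p = 0.947; exact permutation p = 0.0159 before adjustment), with 5 of 5 Tg(Dyrk1a) arrays above the wild type mean.

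Kctd8 read 7.38, 7.46, 7.35, 7.36 and 7.42 in Tg(Dyrk1a) mice, against 7.25, 7.36, 7.40, 7.16 and 7.26 in wild type mice. Its 5 Tg(Dyrk1a) arrays also lay above the wild type mean, though wild type replicates 2 and 3 reached into their range. This gave a log2 fold change of 0.11 ± 0.05 (SE; limma adjusted p = 0.947; exact permutation p = 0.0714). Of the other KCTD genes on the list, Kctd16 was at 0.05 ± 0.04 (SE; limma adjusted p = 0.952). Kctd12b was at 0.0076 ± 0.05 (SE; limma adjusted p = 0.994). Of the 7 measured auxiliary subunits and binding partners, 5 were higher and 2 lower, with a median of 0.01. Only Kctd12 and Kctd8, 2 of these 7, had a limma p below 0.05 before adjustment, beside 5.28% of all genes. After adjustment 0 of the 7 passed.

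Of the G proteins, all 5 Gi/o alpha subunits were measured, with log2 fold changes between -0.03 and 0.03 and a median of 0.0099. Gnai1 was at 0.03 ± 0.04 (SE) and Gnao1, an abundant alpha subunit of brain, at 0.02 ± 0.03 (SE), with limma adjusted p of 0.967 and 0.969. The 15 beta and gamma subunits ran from -0.08 to 0.11 with a median of 0.0083, 9 higher and 6 lower. Gnb3 was at -0.08 ± 0.04 (SE) and Gnb4 at 0.11 ± 0.05 (SE), each with a limma adjusted p of 0.947. Their exact permutation p were 0.0397 and 0.0714 before adjustment.

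RGS proteins shorten the signal by speeding the hydrolysis of GTP on the alpha subunit. The 14 measured RGS proteins and anchors had a median log2 fold change of 0.02, 10 higher and 4 lower. At an unadjusted p under 0.05 there were 0 of 14, beside 5.28% of all genes. Rgs16 had the smallest p of the list, at -0.14 ± 0.08 (SE; limma adjusted p = 0.947; exact permutation p = 0.127). Its highest value was 8.75 in wild type replicate 5, and that array had a thalamus and habenula marker score of 0.51, while the other 9 lay at 0.03 or below. The log2 fold change was -0.05 without that array and -0.03 with the marker scores as covariates. Rgs14, a marker of the CA2 field, was at 0.08 ± 0.06 (SE; limma adjusted p = 0.952).

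Other receptors that open GIRK channels through Gi/o proteins were mixed, 9 higher and 12 lower of 21 measured, with a median log2 fold change of -0.0024. Oprm1, the mu opioid receptor gene, read 6.81, 6.71, 6.85, 6.87 and 6.78 in Tg(Dyrk1a) mice, against 6.73, 6.66, 6.67, 6.74 and 6.72 in wild type mice. The values overlapped only at Tg(Dyrk1a) replicate 2. The log2 fold change was 0.10 ± 0.04 (SE; limma adjusted p = 0.947; exact permutation p = 0.0317 before adjustment).

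Npy2r, the presynaptic neuropeptide Y receptor gene of the mossy fibre and Schaffer collateral terminals, read 8.80, 8.70, 8.71, 8.62 and 8.89 in Tg(Dyrk1a) mice, against 8.31, 8.79, 8.32, 8.65 and 8.65 in wild type mice. Wild type replicates 1 and 3 were far below the other 8 arrays. Its log2 fold change was 0.20 ± 0.09 (SE; limma adjusted p = 0.947; exact permutation p = 0.119).

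The remaining lists were centred near 0. The 11 other effectors and sorting proteins, which include calcium channels and adenylyl cyclases, ran from -0.04 to 0.08 with a median log2 fold change of 0.0042. Adcy2 was at 0.08 ± 0.04 (SE; limma adjusted p = 0.947), and Snx27, the sorting nexin that binds GIRK3, at -0.04 ± 0.04 (SE; limma adjusted p = 0.954). The 10 other inward rectifiers were 5 higher and 5 lower with a median of 0.01. Kcnj14 was at 0.14 ± 0.10 (SE; limma adjusted p = 0.951) and Kcnj12 at -0.04 ± 0.04 (SE; limma adjusted p = 0.969). The widest spread was that of Kcnj13, a channel of the choroid plexus epithelium and itself 1 of the 13 choroid plexus markers, whose log2 fold change was 0.36 ± 0.96 (SE; limma adjusted p = 0.983).

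**Figure D4:**
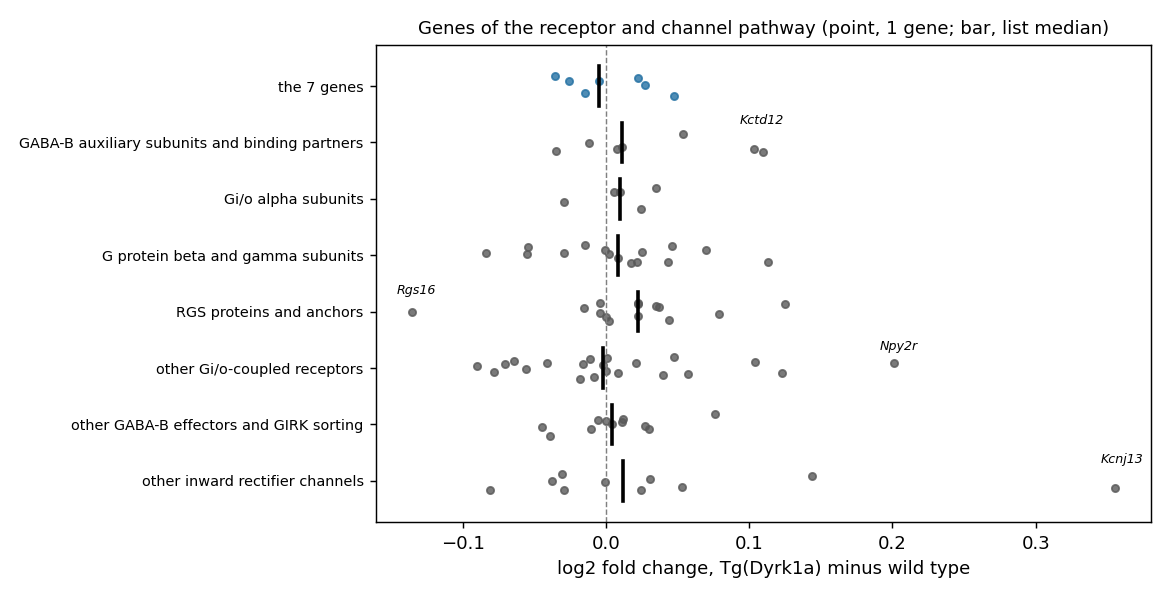
Log2 difference of Tg(Dyrk1a) from wild type (horizontal axis) for the 7 genes (blue) and for 83 genes in 7 pathway lists (grey, 1 row per list), 1 point per gene, with a bar at each list's median; points are spread vertically for legibility. All medians lie between -0.01 and 0.02, and Kcnj13, at 0.36, and Npy2r, at 0.20, lie farthest out.

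The array medians lay between 6.57 and 6.66, and any pair of arrays correlated at r = 0.994 to 0.998. The smallest median absolute difference between the values of 2 arrays was 0.0577, so none was a copy of another. Hippocampal markers were present in both genotypes, with Prox1, of dentate granule cells, at 10.03 in Tg(Dyrk1a) and 9.91 in wild type mice, and Wfs1, of CA1 pyramidal cells, at 10.61 in Tg(Dyrk1a) and 10.56 in wild type mice. Marker lists of tissues and cell types were scored in each array, and after adjustment over the 10 lists none of them differed past the threshold between genotypes (smallest adjusted exact permutation p = 0.0794). Of the meninges and fibroblast markers 12 of 13 were higher, with scores of -0.11 to 0.29 in Tg(Dyrk1a) and -0.23 to 0.06 in wild type mice (exact permutation p = 0.0476, adjusted 0.238). The 12 endothelial and mural markers had 10 higher, and 6 were at an unadjusted limma p under 0.05, beside 5.28% of all genes. Their scores were 0.0209 to 0.10 in Tg(Dyrk1a) and -0.17 to 0.0201 in wild type mice, without overlap (exact permutation p = 0.00794, adjusted 0.0794). Higher values were also found for all 10 dentate granule cell markers and for 10 of 11 GABAergic interneuron markers (exact permutation p of the score = 0.119 each, adjusted 0.298). Of the choroid plexus markers 10 of 13 were higher (exact permutation p = 0.976), and of the thalamus and habenula markers 0 of 8 (exact permutation p = 0.286). With the marker scores of thalamus, meninges and choroid plexus as covariates 0 of the 7 genes were called, and the part of the other cell types in their values was not tested. In such bulk samples fewer cells of a type and less RNA per cell cannot be told apart.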

How the data were processed

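The authors deposited log2 values after RMA (background correction, probe-level normalization and summary per transcript cluster) of Affymetrix Gene 1.0 ST mouse arrays, and the submitters' processing notes name RMA, limma and the build mm10. The set of arrays normalized together is not given in the sources used here. The value table held 35556 transcript clusters, of which the platform annotation gave 1 gene symbol to 21789, several to 1621 and none to 12146. The 23410 annotated ones were tested, and those with several symbols were not named. Each gene stands for its brightest transcript cluster by mean over the 10 arrays (19938 genes, of which 19855 matched RefSeq).

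The genotypes were tested in limma 3.58.1 (R 4.3.3; lmFit and eBayes, no covariate), with Benjamini-Hochberg adjustment over the 23410. Fold changes have Tg(Dyrk1a) as numerator and carry limma standard errors and 95% intervals. A two-sided exact permutation test, over all assignments of the 10 arrays to groups of 5, was added for single genes. FCROS, the rank method of the study, was rewritten for all pairs of arrays, with 25% of ranks trimmed at each end and the outer 0.025 of its f-value counted on either side. The f-value is scaled by the mean and spread over all transcript clusters, so this cutoff largely sets the share called. The scripts were tested on simulated data. The number of arrays limits the precision, and the labels name the mice of a group as biological replicates.

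A marker score is the mean over a list's genes of each array's value minus the gene's mean over the 10 arrays. Named genes are the 7 members, Dyrk1a, the 2 with the smallest limma p in each pathway list, those within 1 Mb of Dyrk1a, and the 2 most like each member. The members and lists were chosen with earlier results of these data known. Alternatives concerned the values (median centring, quantile normalization, averaging a gene's transcript clusters), the features tested (without the dimmest 30%, or the whole table), the model (array weights, variance trend with robust fit, replicate number as block, covariates from the thalamus, meninges and choroid plexus scores), the test (FCROS) and the arrays (without each in turn, or without the 3 whose choroid plexus score exceeded 0.5). For named pathway genes, Vps26c and Pigp these were added after seeing the data. Proteins were not analysed here. Promoter windows come from the RefSeq table of GRCm38.p6.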

Additional observations from a re-analysis of the deposited data

Results flagged for a closer look

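Among 98 groups of 5 arrays, 4 held an array that lay far from the other 4 of its group by Dixon's test (4.08%), where chance gives about 1 in 20 groups (5%), and none of these was a value of the 7 genes. Snx27 had its highest wild type value, 10.06, in replicate 2, with the nearest at 10.01. Cbr3 had its highest wild type value, 7.11, in replicate 1, with the nearest at 6.93. Hlcs had its lowest Tg(Dyrk1a) value, 7.25, in replicate 4, with the nearest at 7.37. The thalamus and habenula score of wild type replicate 5 was 0.51, with the nearest at 0.03.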

How the results depend on the processing

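In all 21 alternatives 0 of the 7 genes were called. Of 139 alternative log2 fold changes of the 7, 127 kept their direction, and the smallest limma p was 0.073 (Gabbr2 without wild type replicate 3) before and 0.814 after adjustment. The sign turned for Kcnj3 with marker covariates (0.0011), for Kcnj5 with median centring (0.00032), for Kcnj6 without the 3 choroid-high arrays (-0.033) and for Kcnj15 without Tg(Dyrk1a) replicate 1 (leaving out 1 array gave -0.0060 to 0.079). Kcnj9 turned with median centring (0.010), array weights (0.062), without the choroid-high arrays (0.063), and in 5 of 10 fits that left out 1 array (-0.049 to 0.052). Kcnj12 turned without the choroid-high arrays (0.024) and with marker covariates (0.023). Kcnj5 gave no value with the dim 30% left out. The causes were not tested. Of all transcript clusters, 2 were called as reported, 1 with median centring, all transcript clusters tested, a variance trend with robust estimation or the choroid-high arrays left out, 0 with marker covariates, 5 with array weights, 1131 with FCROS, and 1 to 2 with 1 array left out. The FCROS cutoff largely sets the share that it calls (4.83% of all transcript clusters), so its counts are not comparable with those of limma. It called 6 pathway genes and 2 chromosome 16 neighbours, against 0 by limma. With the replicate number as a block 1 was called. Deviations of same-numbered arrays correlated at -0.285 to 0.276, and the block changed no call of the 7. Whether same-numbered mice share a litter or a processing batch was not tested. The 95% intervals of the 7 ran from 0.889 to 1.13-fold as reported and from 0.835 to 1.24-fold with marker covariates, where the Kcnj15 log2 fold change was 0.13.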
